A study of Mus musculus with 22 samples.

Results

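The H3K4me3 peak lists of G1ER cells at 12 h of estradiol were compared with those at 6 h, using 4 of the 22 peak lists of the series (2 replicates per time point). The 4 lists were merged into 14754 regions. A region was called gained when it overlapped a peak in both 12 h lists and in neither 6 h list, and lost in the reverse case. By this rule 69 regions were gained (0.468% of all merged regions) and 191 were lost (1.29%), while 11996 (81.3%) held a peak in all 4 lists. The G1ER line (G1E-ER4 in the sample titles) is a subclone of G1E, a mouse erythroid progenitor line that lacks GATA1, and it constitutively expresses GATA1 fused to the ligand-binding part of the estrogen receptor. All cells carried both changes and were grown with stem cell factor and erythropoietin, and both groups had received 10-7 M β-estradiol, for 6 or 12 h. The line is 1 clone, and the labels do not say whether replicates were separate cultures, so the spread between them may be technical. The other 6 H3K4me3 lists (0, 2 and 24 h), the 10 H3K27ac lists and the 2 CTCF lists were used only where stated.

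H3K4me3, trimethylation of lysine 4 of histone H3, is written by the SET1 and MLL complexes and sits mainly on the nucleosomes around transcription start sites (TSSs), above all at CpG islands. Broad domains of the mark are known at genes that define a cell type, while weak H3K4me3 is also found at enhancers. H3K27ac, acetylation of lysine 27, marks both active promoters and active enhancers. In erythroid cells GATA1 binds sites with the core letters GATA, activates globin, heme and membrane genes, and represses genes of the progenitor and mast cell programs.

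The regions that changed lay mostly at distal sites poor in CpG. The sequence at the centre of 3 gained and 3 lost regions is shown. They were taken from those with the largest smaller covered length in the time point with peaks, leaving out regions with a coding TSS or UTR and 1 gained region of higher rank named further on. Each is 300 bases of the plus strand of GRCm38 (mm10), and capitals mark AGATAA or TGATAA on either strand.
Samhd1 region, chr2:157131075-157131374: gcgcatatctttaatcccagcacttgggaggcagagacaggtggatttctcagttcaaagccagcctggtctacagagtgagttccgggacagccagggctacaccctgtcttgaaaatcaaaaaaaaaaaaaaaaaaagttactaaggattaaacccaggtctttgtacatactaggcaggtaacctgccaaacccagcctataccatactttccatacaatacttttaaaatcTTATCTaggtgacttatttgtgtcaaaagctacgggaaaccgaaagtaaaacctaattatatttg
Togaram1 region, chr12:64975428-64975727: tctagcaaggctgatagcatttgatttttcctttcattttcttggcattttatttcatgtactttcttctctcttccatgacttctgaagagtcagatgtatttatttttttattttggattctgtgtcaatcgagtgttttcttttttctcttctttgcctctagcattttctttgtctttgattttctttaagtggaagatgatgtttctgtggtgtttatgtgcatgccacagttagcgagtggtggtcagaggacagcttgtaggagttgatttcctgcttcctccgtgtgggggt
Chst11 region, chr10:83018740-83019039: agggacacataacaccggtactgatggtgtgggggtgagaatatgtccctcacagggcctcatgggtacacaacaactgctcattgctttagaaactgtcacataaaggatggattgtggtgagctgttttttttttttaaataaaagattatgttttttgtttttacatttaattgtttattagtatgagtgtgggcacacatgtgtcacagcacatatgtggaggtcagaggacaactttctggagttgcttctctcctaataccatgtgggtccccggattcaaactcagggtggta
Lmo4 region, chr3:144198720-144199019: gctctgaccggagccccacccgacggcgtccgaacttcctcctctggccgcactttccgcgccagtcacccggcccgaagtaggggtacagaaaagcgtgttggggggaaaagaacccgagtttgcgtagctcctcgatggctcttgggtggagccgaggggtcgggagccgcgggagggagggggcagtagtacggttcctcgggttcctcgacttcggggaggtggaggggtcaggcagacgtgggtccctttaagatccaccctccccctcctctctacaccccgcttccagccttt
Nek6 region, chr2:38536227-38536526: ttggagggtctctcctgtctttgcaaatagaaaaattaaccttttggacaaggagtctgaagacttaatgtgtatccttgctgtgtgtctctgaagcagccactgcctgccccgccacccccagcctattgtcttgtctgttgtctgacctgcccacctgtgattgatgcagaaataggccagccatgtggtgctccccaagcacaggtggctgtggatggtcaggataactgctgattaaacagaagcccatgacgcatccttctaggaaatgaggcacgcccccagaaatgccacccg
Acsf3 region, chr8:122762844-122763143: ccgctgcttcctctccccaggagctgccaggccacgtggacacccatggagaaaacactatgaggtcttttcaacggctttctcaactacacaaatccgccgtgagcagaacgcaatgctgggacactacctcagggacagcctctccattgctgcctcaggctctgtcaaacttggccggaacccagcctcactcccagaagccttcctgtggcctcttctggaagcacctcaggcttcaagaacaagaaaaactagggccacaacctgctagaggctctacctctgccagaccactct
Of these 6 windows, 1 held the GATA letters, in the gained region of an intron of *Samhd1*. The lost *Lmo4* window held 24 CpG dinucleotides, against 2 to 7 in the other 5. All 3 lost regions shown hold a non-coding start and no coding start, a class of 5.76% of lost regions, so they do not stand for the rest.

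Over all classes, AGATAA or TGATAA on either strand lay in the central 300 bases of 33 of the 69 gained regions (47.8%), of 49 of the 191 lost regions (25.7%) and of 15% of regions with a peak in all 4 lists. The share over all merged regions was 17.9%. Base composition moved with this difference: the median GC content of the window was 43% in gained regions, 51% in lost regions and 57.3% in regions of all 4 lists. Among regions without a coding TSS whose window had a GC content of 35 to 45%, the letters were in 18 of 32 gained regions (56.2%), 12 of 29 lost regions (41.4%) and 302 of 727 regions of all 4 lists (41.5%). At 45 to 55% GC they were in 36.8% of gained, 28.8% of lost and 25% of constant regions. At any GC content, without a coding TSS, they were in 50.8% of gained, 26.7% of lost and 28.8% of all merged regions. TATAAA on either strand, which is also rich in A and T and can overlap a GATA string in part, was in 29% of gained, 7.85% of lost and 8.48% of all merged regions. Without a coding TSS and at 35 to 45% GC, TATAAA was in 31.2% of gained, 27.6% of lost and 24.6% of constant regions. At 45 to 55% GC these shares were 26.3%, 5.77% and 9.54%. The part of base composition in the GATA counts was not tested. These counts describe letters in a window and do not show binding.

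For promoters, the 250 bases before the RefSeq start (GRCm38.p6) are given for the gained regions at *Ddit3* and *B3gnt7* and for *Plin2*, whose region widened, with CpG dinucleotides in capitals. Of the 13 genes with a called promoter or a TSS in a called region, 10 were in the promoter table.
Ddit3 promoter, chr10:127290543-127290792, plus strand: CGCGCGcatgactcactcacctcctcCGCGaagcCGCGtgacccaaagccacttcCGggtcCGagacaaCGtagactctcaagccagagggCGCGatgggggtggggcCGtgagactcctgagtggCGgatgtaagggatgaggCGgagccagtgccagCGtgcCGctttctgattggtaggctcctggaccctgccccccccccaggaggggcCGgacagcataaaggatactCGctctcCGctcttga
B3gnt7 promoter, chr1:86302971-86303220, plus strand: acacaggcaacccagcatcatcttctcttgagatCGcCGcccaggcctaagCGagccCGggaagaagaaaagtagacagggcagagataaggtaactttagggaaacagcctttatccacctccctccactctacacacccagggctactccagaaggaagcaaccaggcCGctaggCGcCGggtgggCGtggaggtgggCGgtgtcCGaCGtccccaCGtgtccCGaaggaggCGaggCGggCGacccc
Plin2 promoter, chr4:86670060-86670309, minus strand: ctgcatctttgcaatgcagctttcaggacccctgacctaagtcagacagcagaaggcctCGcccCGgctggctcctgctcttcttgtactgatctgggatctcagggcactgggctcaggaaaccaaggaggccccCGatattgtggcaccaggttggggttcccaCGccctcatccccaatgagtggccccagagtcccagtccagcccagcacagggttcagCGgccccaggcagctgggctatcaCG
The *Ddit3* and *B3gnt7* stretches held 20 and 16 CpG dinucleotides and *Plin2* held 6, against a median of 6 over 32851 promoters. CCAAT on either strand was present in the *Ddit3* and *Plin2* stretches and in 33.8% of all promoters. The GC box GGGCGG on either strand was present only in that of *B3gnt7* among these 3 stretches and in 32.7% of all promoters.

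The lists differed little in extent. The 6 h lists held 13491 and 13468 peaks and the 12 h lists 13239 and 13067, so both 12 h lists had fewer (mean difference -326.5, or -2.42%; exact two-sided permutation test, p = 0.333, the smallest p that 2 against 2 allows). They covered 30.7 and 29.3 Mb at 6 h and 30.5 and 29.9 Mb at 12 h, and these ranges overlapped (exact permutation p = 1). The mean peak length was 2279 and 2174 bp at 6 h and 2300 and 2289 bp at 12 h (exact permutation p = 0.333). Replicate 2 at 6 h stood apart, with the shortest mean peak of the 4 lists and the highest median peak score (1059.6, against 824.2 to 877.6 in the other 3). The Jaccard index (shared covered length divided by the length covered in at least 1 of a pair of lists) was 0.842 between the 6 h replicates and 0.86 between the 12 h replicates, and it was 0.84 to 0.859 between lists of different time points. Lists of the same time point were therefore hardly more alike than lists of different time points. The lists give no read counts, so depth is unknown, and a region without a peak is a region where none was called.

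The number of regions that met the rule is small beside the disagreement between replicates. Of the 711 regions with a peak in exactly 2 of the 4 lists, 451 had 1 list from each time point, 191 had both 6 h lists and 69 had both 12 h lists. A further 1246 regions had a peak in a single list, 758 of them at 6 h and 488 at 12 h. With 1 list left out, the time point with a single list need match only that list, and the counts were 199 gained and 569 lost without replicate 2 at 6 h and 264 and 579 without replicate 1. They were 269 and 452 without replicate 1 at 12 h and 358 and 403 without replicate 2. By the same rule the step from 0 to 2 h gave 64 gained and 239 lost regions, the step from 2 to 6 h 101 and 153, and the step from 12 to 24 h 115 and 169. Neighbouring steps share lists with the 12 h against 6 h comparison and are not independent of it. In each of the 4 steps more regions were lost than gained.

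Regions that met the rule held short, low-scoring peaks. The median of the smaller covered length was 587 bp in gained and 581 bp in lost regions, with a maximum of 4929 bp in gained and 1804 bp in lost regions. Their peaks had a median score of 68.3 in gained and 73.5 in lost regions, where 50 was the lowest score in the lists. Within their own list these were at a median percentile of 5.72 and 6.84. Whether a region held a peak in all 4 lists varied with its width. It did so in 30.1% of regions covered over 500 to 1000 bp in the widest list, in 89.2% at 1000 to 2000 bp and in 99.3% at 2000 to 3000 bp, but in 94.9% at 6000 bp or more. The median peak score was lower at the upper end, 1294.4 for peaks of 3000 to 4000 bp and 389 for peaks of 6000 bp or more. The longest peak of each of the 4 lists was 8843 to 9040 bp, and no list of either histone mark held a peak above 9200 bp. Whether longer domains are among the regions without a peak was not tested.

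**Figure D1:**
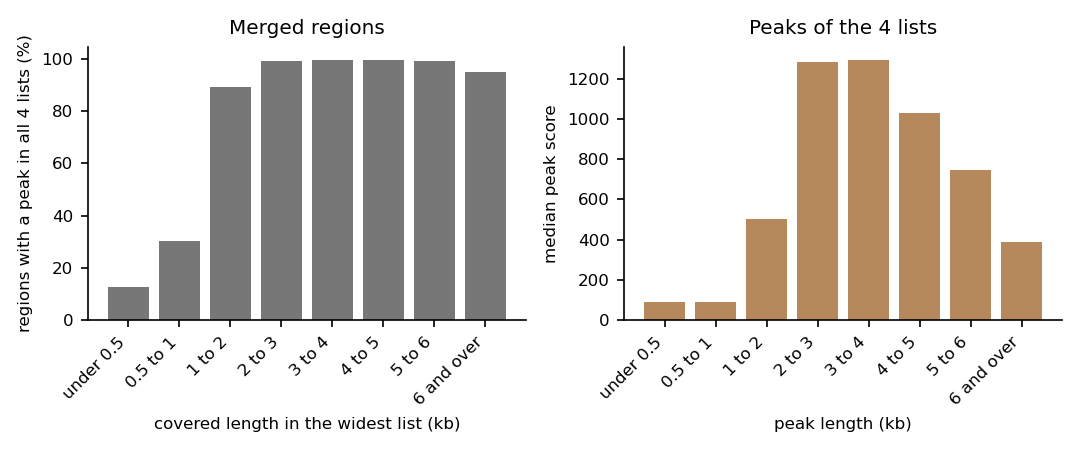
Left, share of merged regions with an H3K4me3 peak in all 4 lists (6 and 12 h, 2 replicates each), by the covered length in the widest list in kb. Right, median deposited score of the peaks of the 4 lists by peak length in kb. Narrow regions were often missing from a list (30.1% in all 4 lists at 0.5 to 1 kb), and the widest peaks had a lower median score (389 at 6 kb and over) than peaks of 3 to 4 kb (1294.4).

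The same regions were looked up in the lists that the rule did not use. A peak at 0 h was present in 58% and 66.7% of gained regions in the replicates and in 64.4% and 68.1% of lost regions. At 2 h the shares were 63.8% and 39.1% of gained and 68.1% and 46.1% of lost regions, and at 24 h they were 34.8% and 40.6% of gained and 37.7% and 39.8% of lost regions. Gained and lost regions had near-equal shares at each of these times, although their 6 and 12 h lists are opposite by the rule. At least 1 list at 0 or 2 h held a peak in 61 of the 69 gained regions (88.4%) and in 169 of the 191 lost regions (88.5%). Only 4 gained and 14 lost regions had no peak in any of the other 6 lists. Both 24 h lists held a peak in 17.4% of gained and 19.4% of lost regions, and neither did in 42% of gained and 41.9% of lost regions. Regions with a peak in all 4 lists had one in 98.1% to 99.6% of cases in each other list.

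**Figure D2:**
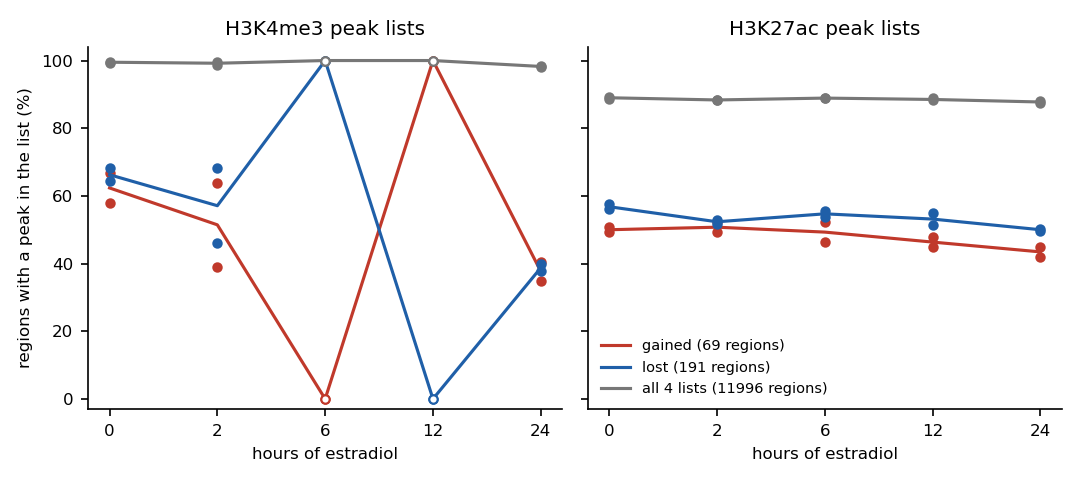
Share of gained (red), lost (blue) and constant regions (grey, a peak in all 4 lists) with a peak in each H3K4me3 (left) and H3K27ac list (right), by hours of estradiol. Each point is 1 list, lines join the means of 2 lists, and open points are the H3K4me3 lists that the rule used. At 0, 2 and 24 h gained and lost regions had similar shares, and their H3K27ac shares lay between 42% and 57.6% at every time.

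H3K27ac at these regions varied little with time. A gained region held an H3K27ac peak in 46.4% to 52.2% of cases in the 6 h lists and in 44.9% to 47.8% in the 12 h lists, and a lost region in 53.9% to 55.5% and 51.3% to 55%. H3K27ac was in all 10 lists at 24 gained (34.8%) and 69 lost regions (36.1%), against 80.5% of regions with H3K4me3 in all 4 lists. CTCF, which binds loop anchors, had a peak in both of its lists (0 and 24 h) at 7 gained (10.1%) and 36 lost regions (18.8%). The share was 30.2% in constant regions. The median width was 822 bp in gained and 784 bp in lost regions, against 2520.5 bp in constant regions. The part of width in these H3K27ac and CTCF shares was not tested. The length covered by H3K27ac was tested between 12 and 6 h in 12804 of the merged regions with limma on log2(covered bp + 200) over the 10 H3K27ac lists. At a Benjamini-Hochberg adjusted p under 0.05, 24 regions (0.187%) were longer and 37 (0.289%) shorter at 12 h. These counts ran from 37 to 96 and from 41 to 107 with 1 H3K27ac list left out, the highest being without replicate 1 at 6 h and without replicate 2 at 12 h, and were 62 and 92 in the 4 H3K27ac lists of 6 and 12 h alone. None of the 40 gained regions tested was among them (614 of all regions had an unadjusted p under 0.05), and 1 of the 128 lost regions tested was, at *Tmem67*. The median H3K27ac difference was 0 in gained and in lost regions, and 0 over all regions tested. Covered length is capped at the width of the region. At *Sept9*, for example, H3K27ac filled all 4595 bp in both 6 h lists and was absent in both 12 h lists (SE 0.00). Spread between such lists is fixed at 0, so the p of such a region does not measure replicate spread.

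Most gained and lost regions were distal. A protein-coding TSS of GENCODE M21 lay in 4 gained (5.8%) and 15 lost regions (7.85%), against 74% of regions with a peak in all 4 lists. Introns held 32 gained (46.4%) and 46 lost regions (24.1%), and 25 (36.2%) and 72 (37.7%) were intergenic. Exons without a TSS held none of the gained and 16 of the lost regions (8.38%). The median distance to a coding TSS was 20144 bp for gained and 18027 bp for lost regions, and 13 (18.8%) and 39 (20.4%) lay within 5 kb of one. CpG density was low, with a median of 1.23 CpG per 100 bp in gained and 2.02 in lost regions, against 3.27 in constant regions. A constant region lay within 2 kb of 1 gained (1.45%) and 5 lost regions (2.62%), near the 3.19% over all merged regions.

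At the promoters among them, *Ddit3* was the widest gained region. *Ddit3* encodes CHOP, a transcription factor of the integrated stress response. Its region (chr10:127290533-127295742, 5210 bp, over the TSS, UTRs and coding exons) was covered over 4929 and 5210 bp in the 12 h replicates and by no peak in the other 8 H3K4me3 lists. The 12 h peaks reached from positions -180 and -241 relative to the TSS to 4748 and 4968, with scores of 291.9 and 176.9. No H3K27ac peak was called there in any of the 10 lists. It was the only gained or lost region covered over more than 2000 bp in any list. *B3gnt7*, an N-acetylglucosaminyltransferase, had a short region at its TSS (chr1:86302891-86303807) with 631 and 887 bp at 12 h and none at 6 h. The 0 h lists covered 836 and 917 bp of it, the 2 h lists 849 and 698 bp, and the 24 h lists 789 and 888 bp, so the 6 h lists were the only ones without it. *Rab11fip5*, a Rab11 effector in recycling endosomes, had 700 and 856 bp at 12 h and a peak in 5 of the 6 lists at 0, 2 and 24 h. *Cnih2*, an AMPA receptor auxiliary subunit, had 541 and 822 bp at 12 h and a peak in both lists at 0 h and in 1 list each at 2 and 24 h.

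Among the lost regions, that at *Tmem67*, a protein of the ciliary transition zone, was covered over 1911 and 1804 bp at 6 h and by no peak at 12 h (chr4:12086802-12088722, over the TSS, UTR and coding exon). All 6 lists at 0, 2 and 24 h covered it, over 1820 to 1921 bp. Both 6 h peaks had low scores (63.9 and 70.9), and the region lay 127 bp from another that had a peak in all 4 lists. At 2 and 24 h and in 1 list at 0 h, 1 peak of 4778 to 5751 bp ran across both. H3K27ac covered 1921 and 1915 bp there at 6 h and 1921 bp in both lists at 0 h, with no peak in the 6 lists at 2, 12 and 24 h. *Tcf25*, a putative transcription factor, lost a region at an internal start (chr8:123397711-123399142) covered over 1360 and 1335 bp at 6 h, over 1064 to 1432 bp at 0 and 2 h and by no peak at 12 or 24 h. H3K27ac covered all 1432 bp in all 10 of its lists. The other 8 lost regions with a coding TSS that were examined were shorter. *Plod1*, a collagen lysyl hydroxylase, had 1039 and 1113 bp at 6 h and *Dnase2b*, a DNase II family nuclease, 1220 and 966 bp. *Vsig10* had 912 and 848 bp, *Fam69a* 927 and 830 bp, *Klf8*, a Krüppel-like repressor, 724 and 679 bp and *Rinl* 613 and 884 bp. *Gpr160*, an orphan receptor, had 634 and 605 bp and *Rabgap1l*, a Rab GTPase-activating protein, 647 and 593 bp. At 24 h neither list covered *Plod1*, *Dnase2b*, *Vsig10*, *Rinl*, *Gpr160* or *Rabgap1l*, 1 list covered *Fam69a* and both covered *Klf8*.

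Away from coding TSSs, the widest gained regions after *Ddit3* were an intron of *Samhd1*, a dNTP hydrolase (1372 and 1571 bp at 12 h), and an intergenic site on chromosome 18 (9893016 to 9894304, 1269 and 1229 bp), the gained region of higher rank whose sequence was left out. Introns of *Togaram1*, a ciliary microtubule protein, and *Chst11*, a chondroitin sulfotransferase, followed with 1092 and 1189 bp and with 1321 and 1054 bp. The others of the widest 8 were an intergenic site on chromosome 4 (122403685 to 122404988, 1044 and 1304 bp) and introns of *Gm21411* (1013 and 984 bp) and *Sppl3*, an intramembrane protease (1238 and 958 bp). The sites on chromosomes 18 and 4 consisted wholly of bases masked as repeats in the assembly. At *Chst11* the region was covered over 142 bp or less in each 0 and 2 h list and over 1486 and 1027 bp at 24 h. The *Togaram1* region was the reverse at 24 h, with 1012 to 1269 bp in the 4 lists at 0 and 2 h and none at 24 h, while H3K27ac covered all of it in all 10 lists.

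The widest lost regions without a coding TSS were at a non-coding start (*Gm43445*) within *Lmo4*, a LIM-domain cofactor (chr3:144197920-144199819), and at a non-coding start (*Gm35808*) within *Nek6*, a mitotic kinase. *Lmo4* had 1900 and 1607 bp at 6 h, a peak in 3 of the 4 lists at 0 and 2 h and none at 24 h, and it lay 2513 bp from a coding start and 675 bp from a constant region. *Nek6* had 1517 and 1673 bp at 6 h and 1673 and 1237 bp at 24 h. A non-coding start (*A530010L16Rik*) near *Acsf3*, a mitochondrial acyl-CoA synthetase, had 1583 and 1422 bp, an intron of *Pip5k1b*, a phosphatidylinositol kinase, 1146 and 1152 bp, and an intron of *Shank3*, a postsynaptic scaffold, 1293 and 1121 bp. A coding exon of *Vwa7* had 1096 and 1187 bp. At *Shank3* both lists at 24 h also lacked a peak, as did both at *Vwa7*, while 1 of the 24 h lists covered *Acsf3* and *Pip5k1b*.

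Of 212 matched genes of the 13 gene lists, 3 had a start within 5 kb of a gained, lost or called region. The share over all genes was not computed, so this count cannot be judged and the 3 genes are only described. Besides *Lmo4*, *Srgn*, the core protein of mast cell proteoglycans, had a gained intronic region (chr10:62503298-62504024). The region lay 3731 bp from an alternative start of *Srgn*, which is not the start used for its promoter window. It had 538 and 724 bp at 12 h and none at 6 h, and was covered in 5 of the 6 lists at 0, 2 and 24 h. *Mki67*, the proliferation marker Ki-67, had a lost region 4848 bp from its start (chr7:135721209-135722261), with 973 and 936 bp at 6 h and none at 12 h. A peak was there in both lists at 0 h and in 1 list each at 2 and 24 h. H3K27ac covered all 727 bp of the *Srgn* region and 913 to 1053 bp of the *Mki67* region in every list.

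To test changes in width, the covered length of each region was compared with limma over the 10 H3K4me3 lists. Of 14388 regions with a peak in at least 2 of them, 8 (0.0556%) were longer and 9 (0.0626%) shorter at 12 h at an adjusted p under 0.05. An unadjusted p under 0.05 was found in 1027, and the median log2 difference was 0.011. Of the 17 called regions, 6 were gained and 7 lost by the presence rule, which uses the same lists, so those values are a description. The other 4 held a peak in all 4 lists. The counts depended on single lists. The longer count ran from 0 (without replicate 2 at 2 h) to 162 (without replicate 1 at 6 h), and the shorter count from 1 (without replicate 1 at 0 h) to 64 (without replicate 1 at 12 h). Leaving out replicate 2 at 6 h, the list that stood apart, gave 27 longer and 10 shorter regions, and leaving out replicate 2 at 12 h gave 7 and 49. Leaving out either list at 0 or 2 h gave 0 to 2 longer and 1 to 4 shorter regions. In a fit to the 4 lists alone 1 region was longer and none shorter, with an unadjusted p under 0.05 in 635.

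**Figure D3:**
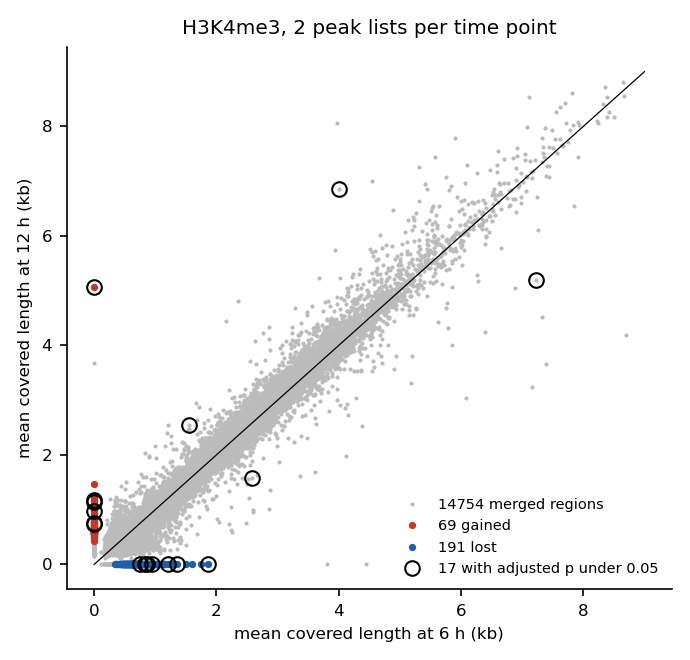
Mean length covered by H3K4me3 peaks at 6 h (x axis, kb) and 12 h (y axis, kb) in each merged region, with 2 lists per time point. The 69 gained and 191 lost regions lie on the axes by definition, circles mark the 17 regions with a limma adjusted p under 0.05, and the line marks equal length.

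*Plin2*, a coat protein of lipid droplets, widened most among the 4 regions present throughout. Its region (chr4:86664107-86671042, over the TSS, UTRs and coding exons) was covered over 4088 and 3919 bp at 6 h and 6936 and 6780 bp at 12 h, a log2 difference of 0.75 on the log2(covered bp + 200) scale (SE 0.07, limma adjusted p = 0.019). Within the region, every list from 0 to 6 h covered 3346 to 4088 bp and every list at 12 and 24 h 6780 to 6936 bp. The region ends where the 6 and 12 h peaks end, and the full 24 h peaks were 7329 and 7034 bp. The upstream edge lay between -982 and -579 bp from the TSS in all 10 lists, and the downstream edge moved from 3204 and 3307 bp at 6 h to 5953 and 5874 bp at 12 h. The peak scores were 905.8 and 1035.0 at 6 h and lower, 205.3 and 224.3, at 12 h. No H3K27ac peak was called in the region in any list.

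*Nadk2*, the mitochondrial NAD kinase, narrowed. Its region (chr15:9069451-9076759) was covered over 7309 and 7157 bp at 6 h and 5252 and 5133 bp at 12 h (log2 difference -0.46 with an SE of 0.06, limma adjusted p = 0.04). The 2 h lists (7309 and 6895 bp) and 24 h lists (7027 and 7187 bp) were wide and the 0 h lists (5027 and 5373 bp) narrow, so the width did not move in 1 direction with time. Again the wider peaks scored lower, 315.9 and 353.9 at 6 h against 863.6 and 923.7 at 12 h.

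An intergenic region 45282 bp from the start of *Bmp2k*, a BMP-induced kinase, also narrowed (chr5:96949666-96952407), from 2659 and 2515 bp to 1581 and 1575 bp (log2 difference -0.65 with an SE of 0.07, limma adjusted p = 0.029). It stayed narrow at 24 h (1494 and 1593 bp) and had 2104 to 2365 bp at 0 and 2 h. H3K27ac covered all 2742 bp in all 10 lists. In an intron of *Lhfp* (chr3:53116316-53119059, 94.3% masked as repeat) the length was 1481 and 1630 bp at 6 h and 2481 and 2603 bp at 12 h (log2 difference 0.64 with an SE of 0.08, limma adjusted p = 0.041). Every list at 0, 2 and 24 h covered 2202 to 2744 bp of that region, so the 6 h lists were the ones apart. Full peaks there reached up to 2878 bp.

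The 13 called regions that were also gained or lost showed which times stood alone. *Ddit3* had a log2 difference of 4.72 (limma adjusted p = 0.014) and was covered at 12 h alone. The lost regions at *Tcf25* (-2.95) and *Shank3* (-2.81), both with an adjusted p of 0.014, were covered in every list until 6 h and in none at 12 or 24 h. *Togaram1* (2.74, adjusted p = 0.017) and an intron of *Tec* near *Txk*, both Tec family kinases (chr5:72758815-72759860, 2.55, adjusted p = 0.036), were covered in every list at 0, 2 and 12 h and in none at 6 or 24 h. The other 8 were covered in all 6 lists at 0, 2 and 24 h and were missing at 6 or 12 h alone. The 6 h lists lacked *B3gnt7* (2.25, adjusted p = 0.029), an intron of *Ap3b1*, an AP-3 adaptor subunit (2.21, adjusted p = 0.034), and the intergenic site on chromosome 4 (2.77, adjusted p = 0.019). The 12 h lists lacked *Tmem67* (-3.36, adjusted p = 2.3e-05), an intron of *Pde4d*, a cAMP phosphodiesterase (-2.47, adjusted p = 0.03), the UTR of *Ier5l* (-2.33, adjusted p = 0.035), an exon of *Upf3b*, a nonsense-mediated decay factor (-2.41, adjusted p = 0.036), and a site 45515 bp from *Bbs10*, a chaperonin-like protein of cilia (-2.25, adjusted p = 0.036).

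**Figure D4:**
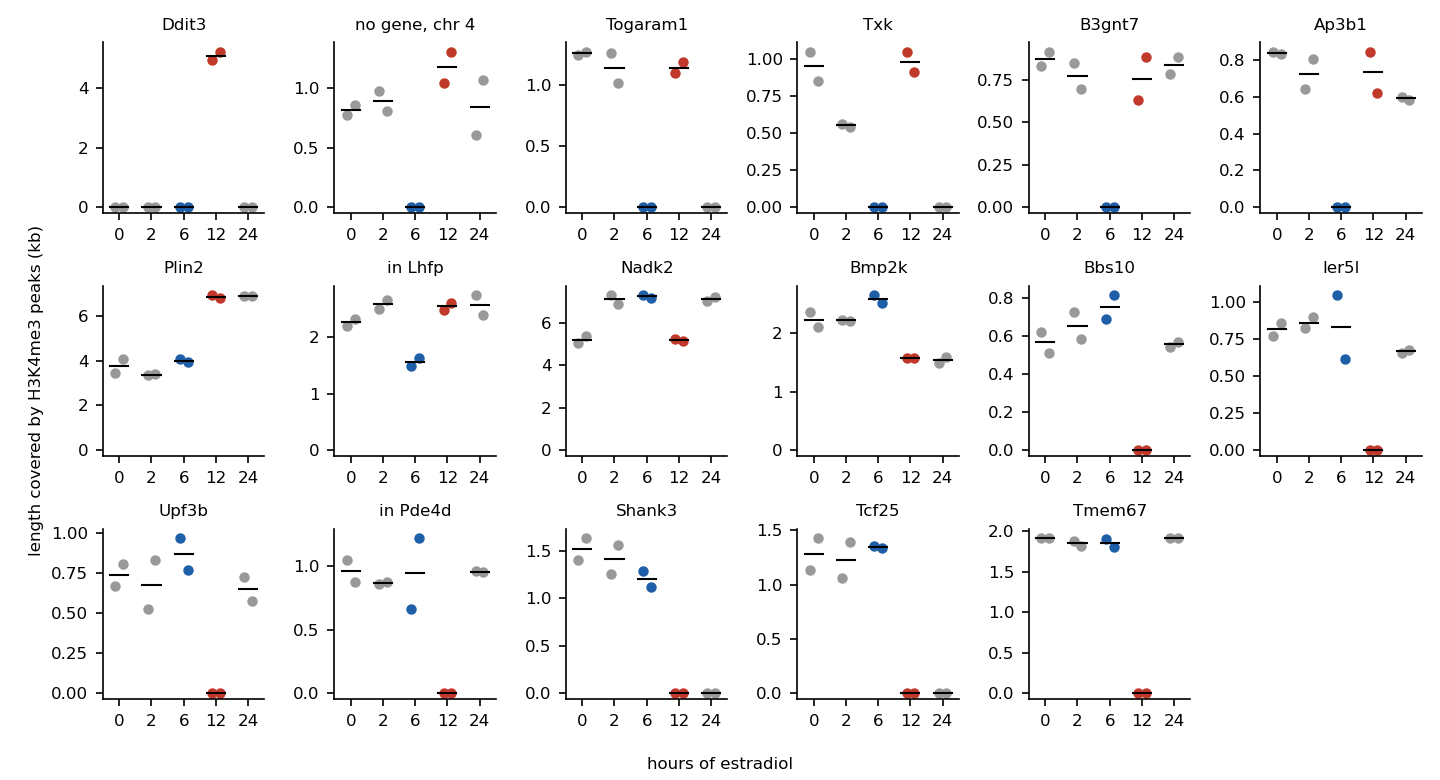
Length covered by H3K4me3 peaks in kb in each of the 10 lists for the 17 regions with a limma adjusted p under 0.05, by hours of estradiol. Points are lists (blue 6 h, red 12 h, grey the others), bars are means of 2 lists, and axes differ between panels. *Plin2* stayed wide at 24 h (6894 and 6881 bp within the region), *Ddit3* was covered at 12 h alone, and *Tmem67* was missing at 12 h alone.

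How far each call held under other settings differed between regions. Except at *Plin2*, *Nadk2*, *Bmp2k* and the intron of *Lhfp*, the called regions were gained or lost by the presence rule. That rule uses the same lists as these refits. For such regions, passing a refit is a description and not independent evidence of a change. *Tmem67* passed in 16 of its 18 alternatives, *Plin2* in 13 of 19, *Tcf25* and *Shank3* each in 13 of 18, *Ddit3* and *Togaram1* each in 12 (of 15 and of 18), the chromosome 4 site in 11 of 18 and *Bmp2k* in 10 of 18. The other calls were lost in most alternatives. *B3gnt7* and *Ier5l* each passed in 8 of 18, *Ap3b1*, *Upf3b* and the introns of *Lhfp* and *Pde4d* each in 7, *Txk* and *Bbs10* each in 6, and *Nadk2* in 5 of 19. When only higher-scoring peaks were kept, the difference at *Plin2* became -4.39 and that at *Nadk2* 4.75, since the wide peaks there score lower.

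For a value per gene, the length covered within 2 kb of 1 TSS was tested in the same way. Of 10010 promoters, 4 (0.04%) were longer at 12 h and 7 (0.0699%) were shorter. An unadjusted p under 0.05 was found for 517. The longer were *B3gnt7*, both annotated copies of *Ddit3*, which share their peak, and *Slc22a23*, an organic ion transporter family member. *Slc22a23* had 3311 and 3282 bp at 6 h and similar lengths at 2 h (3242 and 3347 bp). All lists at 0, 12 and 24 h filled the 4001 bp of the window (log2 difference 0.26 with an SE of 0.02, limma adjusted p = 0.002). The window caps these lengths, so their spread is fixed at 0 and the SE and p do not fully measure replicate spread. *Tmem67* had 3019 and 2816 bp at 6 h and 944 and 1009 bp at 12 h (-1.41, SE 0.06, adjusted p = 0.0011), and *Rbm12b2*, its neighbour, whose window shares peaks with that of *Tmem67*, 3874 and 3661 bp against 2428 and 2493 bp (-0.58, SE 0.03, adjusted p = 0.002). The other 5 shorter promoters were *3110040M04Rik* (947 and 1159 bp at 6 h), *Gpr160* (634 and 605 bp), *Bcl2l15*, a BCL2 family member (583 and 682 bp), *Mylpf*, a fast muscle myosin light chain (554 and 538 bp), and *Tbc1d10b*, a Rab GTPase-activating protein. The first 4 had no peak in either 12 h list. *Tbc1d10b* had 3694 and 3678 bp at 6 h and 2691 and 2406 bp at 12 h (log2 difference -0.50, limma adjusted p = 0.026), and it had 2652 and 2484 bp at 0 h and 3628 to 3749 bp at 2 and 24 h. *Mylpf* and *Tbc1d10b* are neighbours, and the length at *Mylpf* was the end of the peak over *Tbc1d10b*, so their calls rest on 1 peak. The regions at *B3gnt7*, *Ddit3*, *Tmem67* and *Gpr160* were also gained or lost by the presence rule, which uses the same lists, so their promoter values are a description. No promoter passed in a fit to the 4 lists alone (443 with an unadjusted p under 0.05). Peak scores are not comparable between lists, so a pooled score filter keeps unequal shares of them. With only higher-scoring peaks 2 were longer and 80 shorter, 32 were longer without replicate 1 at 6 h, and 15 were shorter without replicate 1 at 12 h. *Tmem67* passed in 14 of 17 alternatives, *Rbm12b2* and *Slc22a23* each in 13 of 17, *Ddit3* in 11 of 14, *B3gnt7* in 11 of 16 and *3110040M04Rik* in 8 of 16. *Tbc1d10b* passed in 4 of 17, *Gpr160* in 3 of 16, *Bcl2l15* in 2 of 16 and *Mylpf* in 1 of 16.

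Promoters were also read by 13 gene lists, which cover erythroid, mast cell, progenitor, megakaryocyte, cell cycle, survival, chromatin and housekeeping genes. Of their 214 genes, 212 were matched, 171 could be tested and none was called, against 0.04% longer and 0.0699% shorter over all promoters. The smallest adjusted p was 0.38 (limma), 2 genes were longer and 4 shorter at an unadjusted p under 0.05 (354 and 163 of the 10010 promoters), and the median log2 difference was 0, against 0.011 over all promoters. A further 38 had no peak within 2 kb of the start in any of the 10 lists, among them *Gata1*, *Gata2* and *Tal1*. Only 1 start per gene was used, and some promoters, such as *Foxo3*, filled the window in some lists and had no peak in others. The paper describes a high GATA2 level in undifferentiated G1ER cells. A start without a called peak is therefore not shown to lack the mark.

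**Figure D5:**
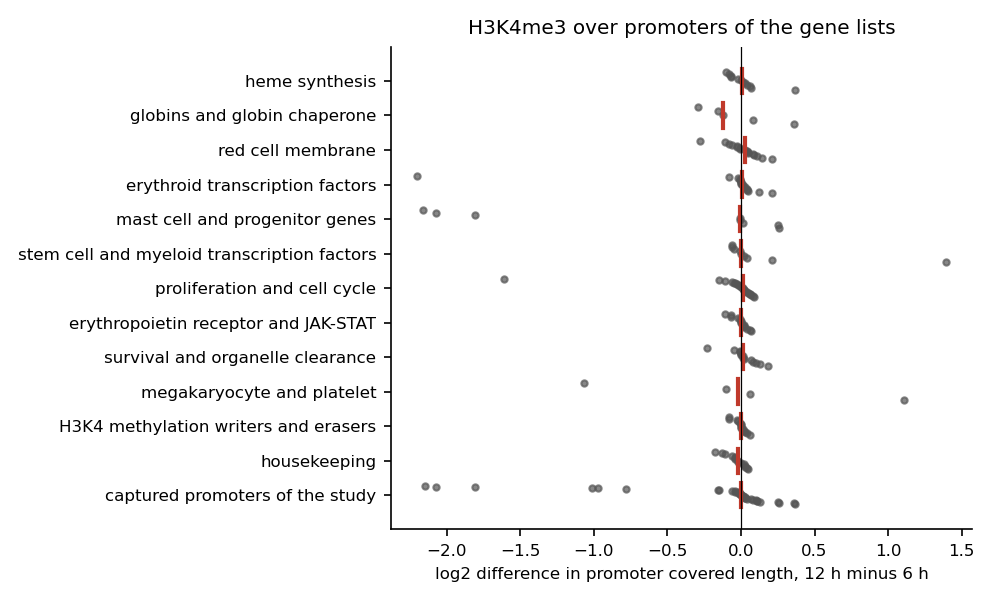
Log2 difference in H3K4me3 length, 12 h minus 6 h, on the log2(covered bp + 200) scale, within 2 kb of the start of each tested gene, by gene list. None of the 171 tested genes had a limma adjusted p under 0.05, red bars are list medians. *Kit*, *Hdc*, *Cpa3* and *Foxo3*, at the left, each had no peak in 1 of the 12 h lists.

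Among the globins, *Hbb-bs*, an adult beta-globin, had 1744 and 1779 bp at 6 h and 2432 and 2200 bp at 12 h. The groups did not overlap (log2 difference 0.36, SE 0.06), but it missed the threshold (limma adjusted p = 0.38, unadjusted 0.00069). At 24 h it had 2490 and 2549 bp. *Hba-a1*, an adult alpha-globin, had 2525 and 2649 bp at 6 h and 2698 and 2777 bp at 12 h. Both have near-identical copies, and the lists rest on uniquely mapped reads, so their values are uncertain. *Hbq1b*, a theta-globin, had 2400 and 759 bp at 6 h and 1165 and 1025 bp at 12 h. None of 5 tested globin genes passed.

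In heme synthesis all 12 promoters had a peak in all 4 lists and none passed, with a median log2 difference of 0.0072. *Alas2*, the erythroid enzyme of the first step, had 2008 and 812 bp at 6 h and 1658 and 1813 bp at 12 h, so the 6 h replicates differed more than the time points. *Tmem14c*, a porphyrin transporter, had 2804 and 2775 bp at 6 h and 2681 and 2501 bp at 12 h (log2 difference -0.10). Of 17 tested red cell membrane genes none passed, and *Epb42*, protein 4.2, had 1921 and 879 bp at 6 h and 1769 and 1362 bp at 12 h. *Epb41*, protein 4.1, had 2031 and 1771 bp at 6 h and lower values, 1745 and 1327 bp, at 12 h (log2 difference -0.28 with an SE of 0.17, limma adjusted p = 0.95). Among 16 tested erythroid transcription factors none passed. *Lmo2*, a partner of TAL1 and GATA1, had 2125 and 2306 bp at 6 h and 2725 and 2449 bp at 12 h (log2 difference 0.21 with an SE of 0.12, limma adjusted p = 0.95), against 1296 to 1703 bp at 0 and 2 h. *Klf1*, an erythroid activator, had 3182 and 3079 bp at 6 h and 3337 and 3101 bp at 12 h.

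Of 8 tested mast cell and progenitor genes none passed, and several lacked a peak in 1 list of 12 h. *Kit*, the receptor of stem cell factor, had 3106 and 3052 bp at 6 h and 2864 and 0 bp at 12 h, and both 24 h lists covered it (3048 and 2906 bp). *Cpa3*, a mast cell carboxypeptidase, had 2352 and 1930 bp at 6 h and 2013 and 0 bp at 12 h, with none at 24 h. *Hdc*, the enzyme of histamine synthesis, had 1975 and 2506 bp at 6 h and 1273 and 0 bp at 12 h. *Foxo3*, a stress-response factor, filled the 4001 bp window in both 6 h lists and in replicate 2 at 12 h, and had no peak in replicate 1. *Mcm2*, a replication helicase subunit, had 2362 and 2488 bp at 6 h and 2331 and 90 bp at 12 h. Between the 12 h replicates, *Kit*, *Cpa3*, *Foxo3* and *Mcm2* differed by more than between the means of the time points.

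None of 9 stem cell and myeloid factors, 23 cell cycle genes, 14 receptor and JAK-STAT genes, 14 survival genes or 4 megakaryocyte genes passed. *Gfi1*, a repressor, had 1165 bp in replicate 1 at 12 h and no peak in the other 3 lists, and *Itgb3*, a platelet integrin, had 737 bp in that list alone of the 4. *Gp9*, a platelet glycoprotein, had 683 bp in replicate 2 at 6 h alone of the 4. *Cyp11a1*, the first enzyme of steroid synthesis, from the study's own list of captured promoters, had 1823 and 1041 bp at 6 h and 433 and 0 bp at 12 h (log2 difference -2.15 with an SE of 1.03, limma adjusted p = 0.94).

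*Bcl2*, an inhibitor of apoptosis, had 2301 and 2144 bp at 6 h and 1950 and 1785 bp at 12 h without overlap (log2 difference -0.23 with an SE of 0.11, limma adjusted p = 0.94). *Fundc1*, a mitophagy receptor, had 1469 and 1238 bp at 6 h and 1529 and 1576 bp at 12 h (0.18). Values overlapped between the time points at *Meis1* (log2 difference 0.21), *Btg2* (-0.15), *Ptpn6* (-0.11), *Socs3* (0.07) and *Rbbp5* (-0.08).

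The labelled cell type was checked against its markers. Of 10 erythroid marker promoters, 9 had a peak in all 4 lists and *Tal1* had none called at the 1 start used. *Nfe2*, a subunit of NF-E2, had 3617 and 3555 bp at 6 h and 3250 and 3533 bp at 12 h (log2 difference -0.08). The summed length of the marker promoters was 26190 to 26417 bp at 6 h and 26269 to 26646 bp at 12 h. Of 34 markers of other cell types, 33 had no peak in any of the 10 lists. The exception was *Gfap*, a glial filament, with 685 and 652 bp at 6 h and 881 and 713 bp at 12 h. None of the 14 tested genes that write or erase H3K4 methylation passed, and the median log2 difference was 0. *Kdm5b*, an H3K4 demethylase, had 2425 and 2664 bp at 6 h and 2428 and 2358 bp at 12 h. Of 15 housekeeping promoters none passed, and 3 (*Gapdh*, *Hprt* and *Rplp0*) were shorter at an unadjusted p under 0.05, against 163 of all 10010 promoters. *Hprt*, a purine salvage enzyme, had 2519 and 2482 bp at 6 h and 2134 and 2236 bp at 12 h (log2 difference -0.18 with an SE of 0.04, limma adjusted p = 0.76).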

How the data were processed

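H3K4me3, H3K27ac and CTCF were profiled by ChIP-seq, and the deposited files are peak lists. Following their methods, the authors aligned reads to mm10 with Bowtie2, discarded reads that mapped to several places, and ran MACS on each library separately. MACS version, control and threshold are not given in the sources used here. Each deposited peak has a position and a score of at least 50, which is not comparable between libraries. The lists hold no read counts, so depth is unknown and no counting interval was given.

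Peaks of the 4 H3K4me3 lists at 6 and 12 h were merged where they touched. Peaks of all other lists were counted only inside these regions, so their covered lengths can be cut at the region edges. Covered length per region, and within 2 kb of 1 TSS per gene (GENCODE M21), was tested with limma 3.58.1 (R 4.3.3) on log2(covered bp + 200), 12 h minus 6 h, over 10 lists, for features covered in at least 2, with Benjamini-Hochberg adjustment and a threshold of 0.05. The fit was tested on simulated lengths of regions with a peak in all 10 lists. That simulation held no region without a peak in some lists, so it says nothing on calls at gained or lost regions. List totals were compared by exact permutation. Promoter sequences came from RefSeq (GRCm38.p6), and no sequence of chromosome 18 was printed. Alternatives were other pseudocounts, filters, windows, merging, scaling, a replicate block and leaving out each list.

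The regions and gene lists were chosen with earlier results of these data known. Named were the 8 gained and 8 lost regions with the largest smaller covered length, up to 10 of each with a coding TSS, the 6 longer and 6 shorter regions and the 5 longer and 5 shorter promoters of smallest p, the other called ones, listed genes within 5 kb of a gained, lost or called region, and the 2 members of each list with the largest difference. Regions were named by the nearest coding TSS within 50 kb, or by the gene that holds them. *Hba-a1*, *Klf1*, *Cpa3*, *Gata1*, *Gata2*, *Tal1*, *Rplp0* and the H3K27ac examples were picked after their values were seen.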

Additional observations from a re-analysis of the deposited data

How the results depend on the processing

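Gained regions numbered 5 and lost regions 339 when peaks below the pooled median score were left out. With equal numbers of top-scoring peaks, 113 were gained and 137 lost. Scores are not comparable between libraries, and replicate 2 at 6 h had the highest median score (1059.6, against 824.2 to 877.6). A pooled cutoff therefore keeps unequal shares of the lists, and its part in the counts with the score filter was not tested. Leaving out 1 list gave 199 to 358 gained and 403 to 579 lost regions. With the score filter the difference in peak number was -855.5 and in covered length -2.08 Mb. Leaving out 1 list gave differences of -412.5 to -240.5 peaks, -0.558 to 0.905 Mb and 16.1 to 120.8 bp in mean length.

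Longer and shorter regions numbered 1 and 0 in the 4 lists alone, 13 and 21 at a pseudocount of 50 bp, 3 and 4 at 1000 bp, 4 and 76 with the score filter, 4 and 2 in regions merged from all 10 lists, and 0 to 162 and 1 to 64 without 1 list. Longer and shorter promoters numbered 0 and 0 in the 4 lists alone, 2 and 80 with the score filter, and 1 to 32 and 2 to 15 without 1 list. Shorter promoters numbered 4 at a pseudocount of 1000 bp, 4 in a window of 1 kb and 1 in a window of 5 kb. H3K27ac gave 62 longer and 92 shorter regions in the 4 lists alone, and 37 to 96 and 41 to 107 without 1 list. With the score filter the log2 difference became -4.39 at the *Plin2* region, 4.75 at the *Nadk2* region, -4.13 at the *Slc22a23* promoter and 1.64 at the *Tbc1d10b* promoter. The cause was not tested, but the filter removes the lower-scoring wide peaks at *Plin2* and *Nadk2*.

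Deviations of same-numbered lists at 6 and 12 h had a correlation of 0.032. This gave no sign of pairing in covered length, but it cannot show whether same-numbered lists shared a culture or batch. With the replicate block 0 regions were longer and 1 was shorter (990 at an unadjusted p under 0.05 in limma), and 4 promoters were longer and 4 shorter. Over all alternatives, 541 values for named regions stayed on the same side of the threshold, 142 lost the call and 12 gained it. A further 2 reversed direction with a call in the main or the other fit. For named promoters the counts were 528, 83, 0 and 2. A value that stayed uncalled counts among the 541 or 528, even where its direction changed, so these counts do not measure how stable the calls were. Depth is unknown, so a missing short peak cannot be told apart from a shallow library.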

Other observations

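Regions where H3K27ac differed between 12 and 6 h were mostly other regions than those of H3K4me3. Of 61 with a limma adjusted p under 0.05, 44 held an H3K4me3 peak in all 4 lists and 1, at *Tmem67*, was also called for H3K4me3. At 34 no H3K27ac peak was present in either 12 h list, and at 14 none in either 6 h list. At *Alad*, an enzyme of heme synthesis, H3K27ac covered 6915 and 6943 bp at 6 h and nothing at 12 or 24 h, while H3K4me3 covered 6557 and 5909 bp at 6 h and 6481 and 6278 bp at 12 h. In the region of *Stat5a*, which transmits the erythropoietin signal, H3K27ac covered 3263 bp in both 6 h lists, nothing at 12 h and 3263 and 3233 bp at 24 h. The *Gabarap* region, of an autophagy protein, had H3K27ac over 2971 bp in both lists at 2 and 12 h and none at 0, 6 and 24 h. At *Slc4a1*, the band 3 anion exchanger, H3K27ac covered 1726 and 1644 bp at 6 h. It rose to 2576 and 2488 bp at 12 h (log2 difference 0.54, limma adjusted p = 0.002). At 24 h both lists covered 2576 bp, the whole region and so the largest length possible. The longest H3K27ac peak in any list was 8973 bp, and whether longer domains are among the regions without a peak was not tested. H3K4me3 at *Slc4a1* covered 1836 and 1761 bp at 6 h and 1795 and 2498 bp at 12 h.

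Starts of non-coding genes lay in 11 lost regions (5.76%) and 1 gained region (1.45%) that held no coding start, against 3.1% of all merged regions. *Rnu2-10*, a U2 small nuclear RNA, had 475 and 546 bp at 6 h and a peak in 1 list at 0 h. *Mir7011*, a microRNA, had 526 and 529 bp at 6 h and none at 24 h.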
